A study of Mus musculus with 20 samples.

Results

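Gene expression after 8 h of AICAR was compared with that of untreated cells at 0 h in mouse embryonic fibroblasts that carry deletions of both genes for the catalytic subunit of AMP-activated protein kinase (AMPK). The comparison was chosen by its labels and takes 5 of the series' 20 arrays, namely 2 arrays at 8 h and 3 controls at 0 h, with 12944 genes tested. The fibroblasts had been immortalized with SV40 and were grown at low density in dishes. The AICAR arrays come from cells given 1 mM AICAR for 8 h, and the control arrays from cells without AICAR. Both groups, and the arrays at 1, 2, 4, 12 and 24 h of AICAR, carry the Ampkα1/α2 double knockout, and no wild-type array was analysed here. The question, from the study's design text, was how expression changes with time in AICAR in cells without AMPK. Because the control was taken at 0 h, time in AICAR and time in culture cannot be told apart in this comparison. Whether the arrays of a group stand for separate cultures is not stated, nor from how many clones the line derives. A p-value here therefore reflects only how far arrays spread within the 7 groups of all 20 arrays, which were fitted together. That spread may be technical. AICAR 8h replicates 1 and 2 are called 8 h arrays 1 and 2 below, and control 0h replicates 1 to 3 are called control arrays 1 to 3.

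AMPK is the kinase by which cells sense a falling energy charge: it is activated when AMP rises, and it then restrains anabolic pathways. AICAR is an adenosine analog that adenosine kinase, encoded by Adk, converts inside cells to ZMP, an AMP mimic and an intermediate of purine synthesis. It is widely used to activate AMPK, and in cells without AMPK it is used to look for effects that do not pass through that kinase.

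The 20 array medians ran from 5.16 to 5.32 (log2), and precision is limited by the number of arrays. The interquartile range of an array's values was 3.09, 3.08 and 2.90 in the controls and 3.19 and 2.95 at 8 h. For the actin control, the signal at the 3' end exceeded that at the 5' end, a measure of RNA integrity, by 0.383 to 0.458 in the controls and by 0.435 and 0.646 on 8 h arrays 1 and 2. The fit with the interquartile range as a covariate is given in the closing section; the part of the RNA integrity measure in the results was not tested. The 95th percentile of the nonspecific control probe sets, 5.08, is used below as the background level. Of 14 fibroblast markers 10 were tested: Vim and S100a4 had control means of 13.20 and 12.47, while Thy1 was at 4.94, below the background level, and Pdgfra at 5.79. The log2 of the summed signal of the tested macrophage markers lay between 8.09 and 8.11 in the controls and between 8.19 and 8.27 at 8 h, where Cd14 was higher by 0.40 (not past the test without 8 h array 1, 0.37, 8 h array 2, 0.42, or control array 3, 0.31). Cd14 was the only one of the 6 tested macrophage markers past the threshold. Of the 6, 3 differences were positive and 3 negative, with a median of 0.01. Ptprc, Lyz2, Itgam and Aif1 were not above the filter. Those sums for epithelial, endothelial, adipocyte and muscle markers were at most 10.23 on any of the 5 arrays, against at least 13.93 for the fibroblast markers. The fibroblast sum came mostly from Vim and S100a4, so it says little of the other fibroblast markers. In these lists the fibroblast marker Dcn (-0.37), the adipocyte marker Lpl (-0.34) and the muscle marker Acta1 (-0.37) were called lower at 8 h. Of the 10 fibroblast markers 8 had negative differences and 2 positive ones. Over all genes tested 7.49% were called higher and 2.84% lower. The knocked-out genes gave control signals of 8.23, 8.21 and 8.11 for Prkaa1 and 5.59, 5.54 and 5.76 for Prkaa2, and at 8 h 7.97 and 7.97 for Prkaa1 and 6.003 and 5.78 for Prkaa2. Another probe set of Prkaa2 went from 4.78, 4.61 and 4.66, below the background level, to 5.70 and 5.42 and rose by 0.87 ± 0.12 (limma over probe sets, adjusted p = 0.000686). Whether these probes lie inside the deleted exons is not known here, so the values check nothing about the knockout.

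At 8 h, 1336 of the 12944 genes (10.3%) differed from 0 h (limma, adjusted p under 0.05): 969 (7.49%) were higher and 367 (2.84%) lower. These shares are the background for the counts of list members given below. Most differences were small. The median size was 0.461 on the log2 scale among the higher genes and 0.429 among the lower ones, 247 and 90 passed 1.5-fold, and 20 and 12 passed 2-fold, 0.247% of all genes together. Arrays of the 2 groups did not overlap for 968 of the higher and 367 of the lower genes, against 40.9% of all genes tested. The calls were made on these same values, so this separation is no further support for them. Genes called lower had a higher control signal (median 8.83) than genes called higher (8.03), and the median over all genes was 7.32. The count rested on few arrays: it was 250 without 8 h array 1, 697 without 8 h array 2 and 781 without control array 3, where 472 were higher and 309 lower. Of the 20 largest rises with names 13 kept their call under every setting tried, and of the 20 largest falls 12 did.

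**Figure D1:**
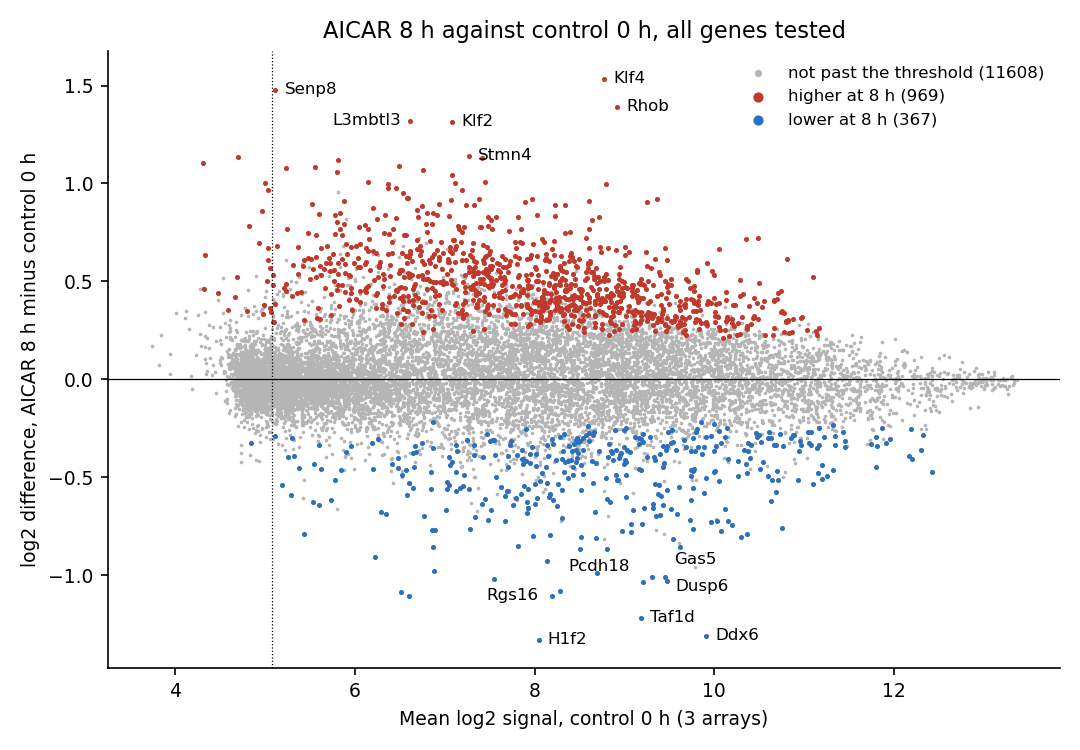
Log2 difference between AICAR 8 h (2 arrays) and control 0 h (3 arrays) against the mean control log2 signal, one point per gene tested. Red points (969) and blue points (367) passed the threshold; the dotted line marks the background level of 5.08. Klf4, Senp8 and Rhob stand highest, and H1f2 and Ddx6 lowest.

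The Kruppel-like factor genes Klf4 and Klf2, which encode zinc-finger transcription factors that restrain proliferation and inflammation in several cell types, rose. Klf4 had log2 signals of 8.84, 8.87 and 8.62 in the controls and 10.31 and 10.32 at 8 h. Its arrays were far apart between the groups and close within them, and it rose by 1.53 ± 0.11 (SE; 2.9-fold; adjusted p = 5.59e-07). Klf2 read 7.25, 7.07 and 6.93 in the controls and 8.44 and 8.35 at 8 h, a rise of 1.31 ± 0.16 (adjusted p = 0.000164). Both had risen since 4 h, by 0.61 ± 0.11 and 0.84 ± 0.16 in the direct comparison of 8 h with 4 h, and the differences from 8 h to 12 h, 0.22 and 0.18, did not pass. Of the 11 Kruppel-like factors tested, these were the only members higher at 8 h, and Klf16 was lower (-0.37); the list median was -0.18, against 0.01 over all genes. Klf16 did not pass without control array 2 (-0.30) or 8 h array 1 (-0.29).

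Rhob, the gene of a small GTPase that acts on endosomes and actin, read 8.91, 9.02 and 8.82 in the controls and 10.42 and 10.19 at 8 h. The arrays of the groups did not overlap, and it rose by 1.39 ± 0.13 (2.62-fold; adjusted p = 2.46e-05), and by 0.81 ± 0.13 since 4 h. Nr4a2, an orphan nuclear receptor of the immediate early class, read 6.65, 6.51 and 6.09 in the controls and 7.22 and 7.01 at 8 h and rose by 0.70 ± 0.21 (adjusted p = 0.042), but not without any one of 4 arrays (from 0.53 without control array 3 to 0.81 without 8 h array 2) or by the mean of its probe sets (0.20). Of 21 immediate early genes 2 rose and 3 fell, with a list median of -0.17; Ier2 read 9.52, 9.53 and 9.58 in the controls and 8.75 and 8.71 at 8 h and fell by 0.81 ± 0.14 (adjusted p = 0.00117).

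The windows upstream of 4 of these genes are shown because the genes rose and the windows hold motifs that were searched for. The sequences are RefSeq's, build GRCm38.p6, read 5′ to 3′ on the gene's strand, with the matched motif in capitals. Klf2 (chr8:72318919-72318978, + strand) and Nr4a2 (chr2:57124136-57124195, - strand) hold a MEF2 site, which ends 109 and 158 bases before the start. Klf4 (chr4:55532627-55532682, - strand) holds an E-box, CACGTG, and Rhob (chr12:8500046-8500149, - strand) has 2 CCAAT boxes in opposite orientations.
Klf2: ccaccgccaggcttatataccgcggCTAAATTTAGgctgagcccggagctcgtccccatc
Nr4a2: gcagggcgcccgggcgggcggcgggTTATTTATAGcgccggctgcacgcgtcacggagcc
Klf4: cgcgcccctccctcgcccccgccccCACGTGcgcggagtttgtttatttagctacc
Rhob: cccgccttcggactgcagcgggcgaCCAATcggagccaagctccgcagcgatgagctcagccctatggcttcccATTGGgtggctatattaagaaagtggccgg

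A MEF2 site lay in 2.69% of the promoters of higher genes, 2.66% of those of lower genes and 2.1% of those of all 10401 tested genes with a promoter window (250 bases before to 50 after the start), and in 3.19% of all 32851 windows of the table. The E-box CACGTG lay in 12.7%, 15.6% and 11.3% of these gene groups in that order, and in 7.15% of all windows. The CCAAT box lay in 42.5%, 52.2% and 42.6%, and in 37.4% of all windows. For the CRE, TGACGTCA, the shares were 4.48%, 2.33% and 3.38%, with 1.79% of all windows. The heat shock element (GAA, TTC and GAA, with any 2 bases between neighbours) gave 0.512%, 0.664% and 0.538% (0.603% of all windows), and the CArG box 1.92%, 2.33% and 1.59% (1.63%). Motifs were read on both strands, and a CArG box can contain a CCAAT box. Matches of different motifs were counted even where they overlap. The shares are descriptions, with no test.

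**Figure D2:**
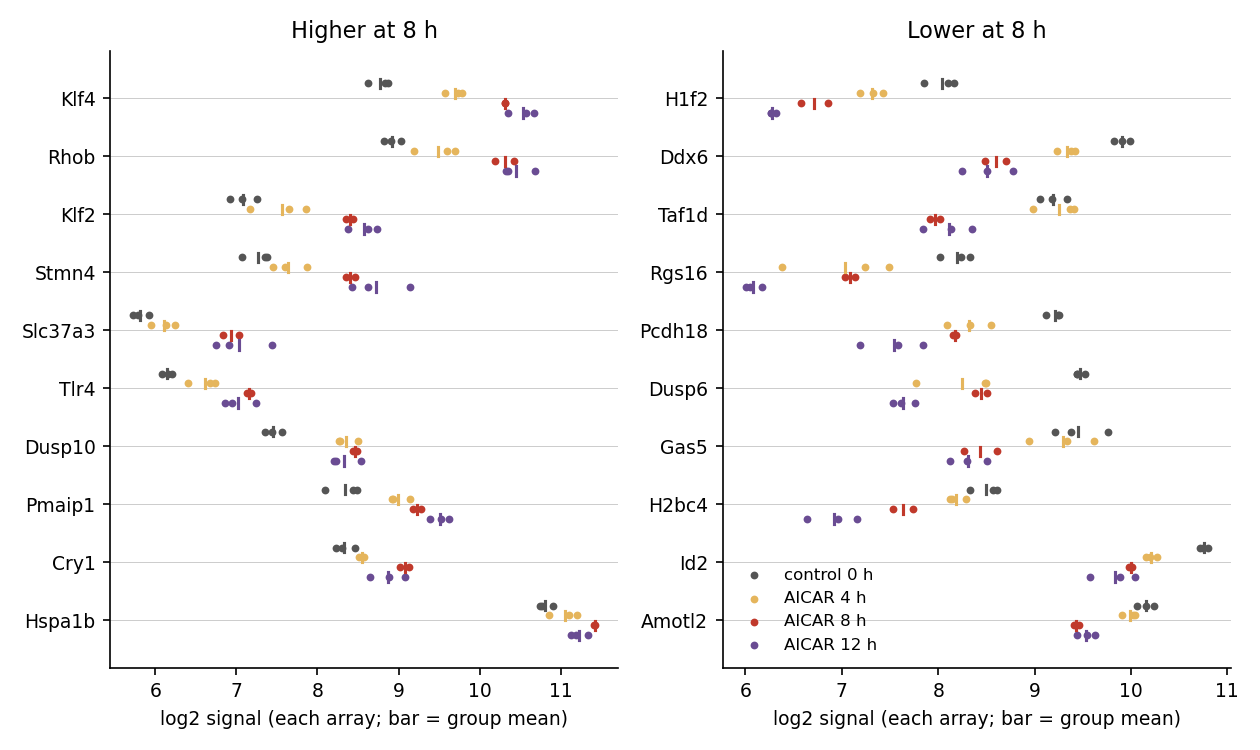
Log2 signal on each array for 10 genes that were higher and 10 that were lower at 8 h, with controls in grey, 4 h in yellow, 8 h in red and 12 h in purple; vertical bars are group means. The 8 h arrays lie apart from the control arrays in all 20 genes, and those of Klf4, Klf2 and Rhob lie above the 4 h arrays too. Separation from the controls was part of the rule by which the genes with the largest differences were named.

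Of 9 host genes of small nucleolar RNAs (snoRNAs) tested, 6 were lower at 8 h, with a list median of -0.50. These genes carry snoRNAs, the guides of ribosomal RNA modification, in their introns. Taf1d, which also encodes a subunit of the RNA polymerase I factor SL1, read 9.33, 9.18 and 9.05 in the controls and 7.92 and 8.02 at 8 h, and fell by 1.22 ± 0.18 (adjusted p = 0.000513). It was at 9.41, 8.99 and 9.36 at 4 h, overlapping the controls, and the difference between 4 h and 8 h was -1.28 (-0.64 by the mean of its probe sets). Each of its 7 probe sets was lower at 8 h with no overlap of arrays, by 0.49 to 1.54, and 6 passed on their own. Gas5, a growth-arrest long noncoding RNA, read 9.76, 9.38 and 9.21 in the controls and 8.27 and 8.61 at 8 h and fell by 1.01 ± 0.21 (adjusted p = 0.00575). Snhg5 (-0.79), Snhg17 (-0.57), Snhg6 (-0.50) and Zfas1 (-0.47) were the other members lower. With 8 h array 2 left out, the count was 6, but without 8 h array 1 it was 2, and Gas5 (-0.84), Snhg5 (-0.65), Snhg17 (-0.44) and Zfas1 (-0.43) did not. Snhg5 also did not pass by the mean of its probe sets (-0.32).

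No such fall was measured for the ribosome's own proteins: 0 of 21 cytosolic ribosomal protein genes passed in limma, 0 had an unadjusted p under 0.05, and their median difference was -0.02. Of 20 ribosome biogenesis genes, Nop56, a core protein of box C/D snoRNA particles, fell (-0.27), and the list median was -0.08. Nop56 did not pass without any one of the 5 arrays (from -0.22 to -0.32).

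Of 11 histone genes tested, 4 were lower. Histones package DNA, and most of their genes are expressed in S phase. H1f2, a linker histone gene, read 8.17, 8.10 and 7.86 in the controls and 6.85 and 6.57 at 8 h, and fell by 1.33 ± 0.11 (adjusted p = 2.64e-06); its other probe set fell by 1.61 ± 0.21. H2bc4, a core histone H2B gene, read 8.61, 8.56 and 8.33 in the controls and 7.53 and 7.74 at 8 h and fell by 0.87 ± 0.15 (adjusted p = 0.00166). The fall of H1f2 since 4 h was 0.60 ± 0.11. H2ax (-0.60), the variant phosphorylated at DNA breaks, and H2bu2 (-0.34) were the others, and the list median was -0.17. Without 8 h array 1 2 were lower, and H2ax (-0.56) and H2bu2 (-0.24) did not pass; H2bu2 also did not pass without control array 1 (-0.33) or 2 (-0.30).

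The stretches upstream of H1f2 (chr13:23738728-23738782, + strand) and Gas5 (chr1:161035095-161035152, + strand) are shown as those of 2 leading falls. H1f2 has a CCAAT box that starts 54 bases before the start, and Gas5 a CRE that starts 46 bases before it, both in capitals (RefSeq, GRCm38.p6, 5′ to 3′).
H1f2: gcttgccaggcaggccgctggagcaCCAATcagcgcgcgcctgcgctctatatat
Gas5: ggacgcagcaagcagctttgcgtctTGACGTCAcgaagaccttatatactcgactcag

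Dusp6, the phosphatase that switches off ERK, read 9.52, 9.45 and 9.44 in the controls and 8.51 and 8.38 at 8 h and fell by 1.03 ± 0.18 (adjusted p = 0.00176). At 4 h it had been at 7.77, 8.49 and 8.50, a difference that did not pass against 8 h (0.19), and at 12 h it was lower again (-0.81), a call that did not pass when any one of the 5 arrays at 8 h and 12 h was left out (from -0.87 to -0.74). Dusp10, a phosphatase for JNK and p38, read 7.56, 7.44 and 7.35 in the controls and 8.48 and 8.44 at 8 h and rose by 1.01 ± 0.11 (adjusted p = 4.83e-05; 0.61 by the mean of its probe sets). Of 13 genes that ERK signalling induces, among them its feedback inhibitors, 3 fell: Dusp6, Spry4 (-0.68), an inhibitor of receptor tyrosine kinase signalling, and the Ets factor gene Etv5 (-0.53); the list median was -0.22. Spry4 did not pass without any one of the 5 arrays (from -0.86 without 8 h array 2 to -0.50 without 8 h array 1) or by the mean of its probe sets (-0.15). Etv5 did not pass without control array 1 (-0.43) or 2 (-0.54), or 8 h array 1 (-0.65) or 2 (-0.42).

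Of 12 targets of TGF-beta and bone morphogenetic protein (BMP) signalling 4 fell, with a list median of -0.26. Id2, an inhibitor of basic helix-loop-helix factors, read 10.80, 10.72 and 10.75 in the controls and 10.02 and 9.98 at 8 h and fell by 0.76 ± 0.13 (adjusted p = 0.00166), and Id1 fell by 0.73 ± 0.20 (adjusted p = 0.0281). Smad6, which encodes an inhibitory Smad, fell by 0.77 ± 0.18 (adjusted p = 0.0126), and Fst, the gene of follistatin, which binds activin, by 0.73 ± 0.15 (adjusted p = 0.00406). None of the 4 differed between 4 h and 8 h in limma, where their differences ran from -0.21 for Id2 to 0.24 for Fst. With 8 h array 1 left out, only Id2 of the 4 passed (Id1 (-0.66), Smad6 (-0.88) and Fst (-0.73) did not), and without 8 h array 2 Id1 (-0.79) and Smad6 (-0.65) did not. Id1 also did not pass without any one of the 3 controls (from -0.75 to -0.71), nor Smad6 without control array 1 (-0.66).

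Of 14 targets of YAP and TAZ, the coactivators that the Hippo kinases inhibit, 3 fell: Amotl2, an angiomotin that binds YAP, from 10.06, 10.16 and 10.24 in the controls to 9.41 and 9.46 at 8 h (by 0.72 ± 0.08; adjusted p = 9.59e-05), Crim1 (-0.55) and the ankyrin repeat gene Ankrd1 (-0.51). The list median was -0.13. Without 8 h array 1 1 passed, and Crim1 (-0.32) and Ankrd1 (-0.45) did not. Crim1 also did not pass by the mean of its probe sets (-0.72). Among 15 core genes of the Hippo pathway, the kinase gene Lats2 was lower by 0.62 ± 0.16 (adjusted p = 0.0186) by the probe set with the highest signal, and Lats1 did not pass (0.21; adjusted p = 0.12), although its other probe set rose by 1.04 ± 0.23 and the mean of both, 0.62, passed. Lats2 did not pass without control array 3 (-0.58) or 8 h array 2 (-0.37), and another of its probe sets rose, as described below.

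RNA-binding motif (Rbm) genes, which encode regulators of splicing and RNA stability, were among the groups with the most calls: of 25 genes of the Rbm and FET families 9 rose and 2 fell, with a list median of 0.15. Rbm14, a coactivator and splicing regulator, read 10.48, 10.33 and 10.27 in the controls and 11.14 and 11.001 at 8 h and rose by 0.72 ± 0.13 (adjusted p = 0.00186), and all 5 of its probe sets passed. Rbm33 rose by 0.65 ± 0.10 (adjusted p = 0.000936; 0.16, not past the test, by the mean of its probe sets), and Rbm4, a splicing factor, by 0.63 ± 0.14 (adjusted p = 0.00644). Rbm12 rose by 0.49 (0.07, not past the test, by the mean of its probe sets). Rbm15, which recruits the m6A methyltransferase, was higher at 8 h than at 0 h (0.49) but lower than at 4 h (-0.92), and Rbm14 and Rbm12 were lower at 12 h than at 8 h (-1.305 and -0.77). The 2 members that fell were Rbm34, from 8.86, 8.86 and 8.71 in the controls to 7.83 and 8.04 at 8 h (by 0.87 ± 0.12; adjusted p = 0.000286), and the cold-inducible gene Cirbp (-0.61). The list's counts were 1 and 1 without 8 h array 1, where Rbm14 (0.64), Rbm4 (0.51), Rbm12 (0.46), Rbm15 (0.37) and Cirbp (-0.51) did not pass, and 6 and 2 without 8 h array 2.

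Ddx6, the RNA helicase of processing bodies, where translationally silent mRNA gathers, read 9.83, 9.99 and 9.91 in the controls and 8.71 and 8.49 at 8 h. It fell by 1.31 ± 0.13 (2.49-fold lower; adjusted p = 3.21e-05), 0.74 of it since 4 h, but by the mean of its 3 probe sets neither the difference from 0 h (-0.96) nor that from 4 h (-0.43) passed; its other probe sets differed by -0.65 ± 0.76 and -0.92 ± 0.92. Of 23 RNA decay and P-body genes 2 fell (Ddx6 and the deadenylase gene Cnot6, -0.42) and 2 rose (Edc3, 0.42, which promotes decapping, and Tob1, 0.51 or 0.26 averaged over its probe sets, which binds the deadenylase complex). With 8 h array 1 left out, Ddx6 alone passed, and Cnot6 (-0.44), Edc3 (0.38) and Tob1 (0.42) did not; Cnot6 and Edc3 also did not pass without 8 h array 2 (-0.40 and 0.47), nor Edc3 without control array 3 (0.36). Of 15 SR protein and Clk kinase genes, which act in splicing, the SR genes Srsf10 (-0.48), Srsf2 (-0.41) and Srsf3 (-0.25) fell; none of these 3 passed without 8 h array 1 (-0.43, -0.38 and -0.18), and Srsf3 did not pass without any one of the 5 arrays (from -0.32 to -0.18). The mean of its 6 probe sets was -0.55 and passed, and 4 of them passed on their own. By the mean of its probe sets Srsf10 was -0.17, and without cross-hybridizing probe sets Srsf2 was -0.10; neither passed.

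Of 15 contractile genes 4 fell, with a list median of -0.27. Among them were the myosin light chain gene Myl9, from 7.80, 7.66 and 7.56 in the controls to 7.16 and 6.999 at 8 h (by 0.60 ± 0.13; adjusted p = 0.00614), and the tropomyosin gene Tpm1 (-0.33). Of 20 extracellular matrix and myofibroblast genes 6 fell, with a list median of -0.24; one was the basement membrane collagen gene Col4a1, from 11.10, 11.19 and 11.13 in the controls to 10.78 and 10.80 at 8 h (by 0.35 ± 0.07; adjusted p = 0.00522). Ncam1, an adhesion molecule, fell by 0.43 ± 0.08 (adjusted p = 0.00347; -0.17, not past the test, by the mean of its probe sets). Without 8 h array 1 1 contractile and 0 matrix genes passed, with Tpm1 at -0.34 and Col4a1 at -0.33. With 8 h array 2 left out, the counts were 0 and 1, with Myl9 at -0.52 and Tpm1 at -0.31.

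Of 28 genes of G2/M and mitosis 5 fell, with a list median of -0.09. Aurka, the gene of a mitotic kinase, went from 9.85, 9.69 and 9.68 in the controls to 9.34 and 9.23 at 8 h (by 0.46 ± 0.10; adjusted p = 0.00492), and Cdc20, which activates the anaphase-promoting complex, fell by 0.34 ± 0.08 (adjusted p = 0.0113). Against 4 h, 9 of the 28 were lower, where 2.46% of all genes were. Of 26 S phase genes 2 rose and 2 fell, against 7.49% and 2.84% of all genes, and of 15 genes of pyrimidine and deoxynucleotide synthesis 3 fell, among them the thymidine kinase gene Tk1 (by 0.47 ± 0.10; adjusted p = 0.00547). The mitotic count was 1 without 8 h array 1, where Cdc20 was -0.39 and Tk1 -0.42, and 1 without 8 h array 2, where Aurka was -0.41 and Cdc20 -0.30.

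**Figure D3:**
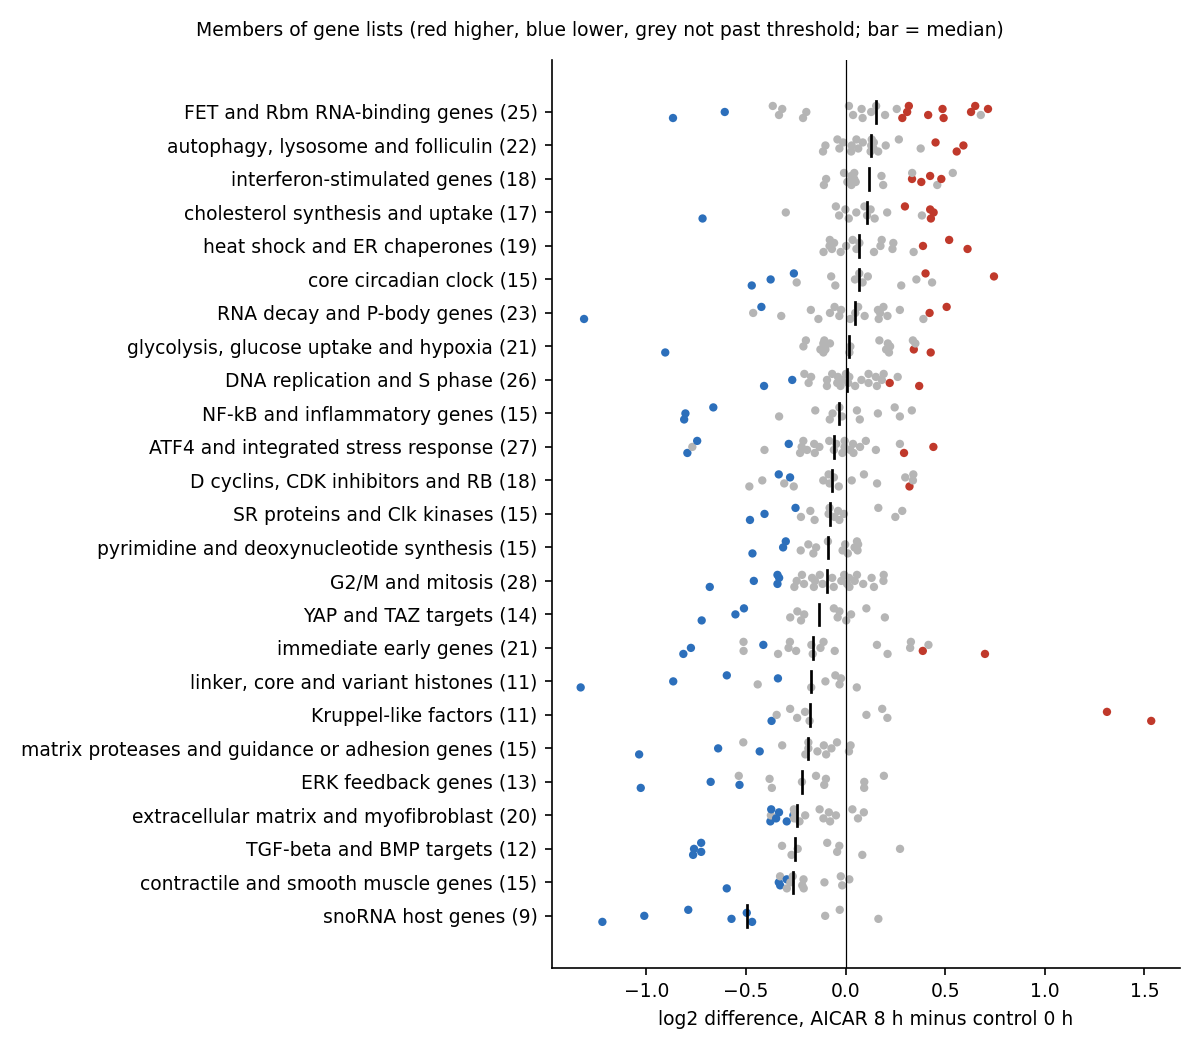
Log2 difference at 8 h against 0 h for each tested member of the gene lists with 3 or more members past the threshold, with the number tested in brackets, the members higher in red, lower in blue and not past the threshold in grey, and the median as a black bar. The snoRNA host genes have the lowest median (-0.50) and the Rbm and FET genes the highest (0.15), while Klf4 and Klf2 stand apart from the rest of their list.

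Insig1, which holds the sterol-sensing SREBP complex in the endoplasmic reticulum, read 9.71, 9.77 and 9.72 in the controls and 9.09 and 8.94 at 8 h and fell by 0.72 ± 0.13 (adjusted p = 0.00224). Of 17 genes of cholesterol synthesis and uptake, 4 synthesis enzymes rose, among them Fdps (by 0.44 ± 0.09; adjusted p = 0.0049), which makes farnesyl diphosphate, and Cyp51 (0.42; 0.24, not past the test, by the mean of its probe sets), a lanosterol demethylase. Without 8 h array 1 Insig1 alone passed, and Fdps (0.44) and Cyp51 (0.38) did not. Of 19 heat shock and endoplasmic reticulum chaperone genes 3 rose: Hspa1b, which encodes an inducible Hsp70, from 10.91, 10.77 and 10.74 in the controls to 11.43 and 11.41 at 8 h (by 0.61 ± 0.10; adjusted p = 0.00106; all 3 probe sets passed), the Hsp40 gene Dnajb4 (0.52) and Xbp1 (0.39), a transcription factor gene of the unfolded protein response. Dnajb4 and Xbp1 did not pass without 8 h array 1 (0.44 and 0.37). Xbp1 also did not pass without 8 h array 2 (0.41) or without control arrays 2 (0.35) and 3 (0.40).

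Of 15 genes of the circadian clock 2 rose and 3 fell. The repressor gene Cry1 read 8.46, 8.30 and 8.23 in the controls and 9.13 and 9.02 at 8 h and rose by 0.75 ± 0.11 (adjusted p = 0.000713), while Nr1d2, a clock repressor of the nuclear receptor family, fell by 0.47 ± 0.11 (adjusted p = 0.00867; -0.26 by the mean of its probe sets). The activator gene Arntl rose by 0.40 ± 0.12 (adjusted p = 0.0332; 0.16, not past the test, by the mean of its probe sets). Without 8 h array 1 or 2 Nr1d2 (-0.52 and -0.43) and Arntl (0.33 and 0.47) did not pass, nor Arntl without control array 2 (0.41) or 3 (0.36). The labels used here give no hour of day or synchronization.

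Of 15 NF-kB and inflammatory genes 3 fell, namely the IkappaB family gene Nfkbiz (-0.81; -0.70, not past the test, without 8 h array 1), the prostaglandin synthase gene Ptgs2 and the cytokine gene Csf1. Ptgs2 and Csf1 also had probe sets that rose and are described below. Tlr4, the receptor for bacterial lipopolysaccharide, read 6.08, 6.21 and 6.16 in the controls and 7.14 and 7.18 at 8 h, a rise of 1.01 ± 0.11 (adjusted p = 3.64e-05) seen in both of its probe sets. Tnfrsf10b, the mouse death receptor for TRAIL, rose by 1.06 ± 0.19 (adjusted p = 0.00228; 0.88, not past the test, without 8 h array 1). Pmaip1, which encodes the pro-apoptotic protein Noxa, read 8.48, 8.44 and 8.10 in the controls and 9.18 and 9.28 at 8 h and rose by 0.89 ± 0.11 (adjusted p = 0.000132). It was 1 of 17 p53 targets that rose, and Gadd45a fell (-0.67; not past the test without 8 h array 1, -0.66, or 2, -0.68). Of 18 interferon-stimulated genes 4 rose, among them Ifit2 (0.48), which binds viral RNA, and 0 did without 8 h array 1, where Ifit2 was 0.38. The stress factor gene Ddit3 fell by 0.79 ± 0.17 (adjusted p = 0.00695), but not past the test without 8 h array 1 (-0.85) or 2 (-0.73).

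Of 11 genes that handle AICAR and adenosine, Ampd3, an AMP deaminase gene, rose, from 6.38, 6.23 and 5.996 in the controls to 6.82 and 6.89 at 8 h (by 0.65 ± 0.18; adjusted p = 0.0232), and by 1.09 ± 0.18 since 4 h. Against 0 h it did not pass without 8 h array 1 (0.69) or 2 (0.62) or without control array 2 (0.67) or 3 (0.55). Adk read 11.55, 11.55 and 11.54 in the controls and 11.30 and 11.42 at 8 h, a difference of -0.18 that did not pass (adjusted p = 0.108). Of 10 AMPK subunit and kinase genes 0 passed in limma, with 5 at an unadjusted p under 0.05, against 10.3% of all genes and 2978 of 12944. Prkag2 (0.47) and Camkk2 (0.39, but 0.23 without 8 h array 1 and 0.18 averaged over its probe sets) had the largest t. Both passed with quantile normalization (0.44 and 0.36), array weights (0.39 and 0.38) and the interquartile range as a covariate (0.42 and 0.35). Prkag2 also passed without control array 1 (0.57), and Camkk2 with the filter at the 60th percentile (0.39). For 13 purine synthesis and salvage genes the limma counts past the threshold and at an unadjusted p under 0.05 were 0 and 5. For 25 genes of the respiratory chain and ATP synthase they were 0 and 1, with list medians of -0.08 and -0.05. Txnip, which encodes a thioredoxin-binding arrestin that limits glucose uptake, read 6.2, 6.41 and 6.40 in the controls and 7.28 and 7.08 at 8 h and rose by 0.84 ± 0.15 (adjusted p = 0.00171; 0.75, not past the test, without 8 h array 1; 0.44 by the mean of its probe sets).

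Among the other largest rises, Senp8, which encodes a protease that processes NEDD8, went from 5.28, 5.12 and 4.94, near the background level, to 6.75 and 6.44 (by 1.48 ± 0.26; adjusted p = 0.002), but its other 2 probe sets, at 0.10 and 0.18, did not pass, and it did not pass without 8 h array 1 (1.32) or by the mean of the probe sets (0.58). L3mbtl3, which encodes a reader of methylated histones, read 6.71, 6.93 and 6.21 in the controls and 7.91 and 7.96 at 8 h (by 1.32 ± 0.21; adjusted p = 0.000851; 0.75 by the mean of its probe sets). Stmn4, a microtubule-destabilizing stathmin, rose by 1.14 ± 0.17, the solute carrier gene Slc37a3 by 1.12 ± 0.17 and the zinc-finger repressor gene Zgpat by 1.07 ± 0.15 (adjusted p = 0.000532, 0.000713 and 0.000464). Among the other largest falls, Rgs16, an inhibitor of G-protein signalling, fell by 1.11 ± 0.22, the protocadherin gene Pcdh18 by 1.04 ± 0.15, the kinase gene Pim3 by 0.93 ± 0.11 and Mir100hg, the host transcript of a microRNA cluster, by 1.01 ± 0.16 (adjusted p = 0.00355, 0.000532, 0.000131 and 0.000802). Averaged over its probe sets the difference of Pcdh18 was -0.45 and still passed.

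The 8 h arrays were also compared directly with those at 4 h, which leaves out the controls. In all, 1506 genes (11.6%) differed, 1187 (9.17%) higher and 319 (2.46%) lower at 8 h, and 63 by at least 2-fold (0.487%). With 8 h array 1 left out, the count was 520, and without 8 h array 2 it was 746; with the spread of values on an array (its interquartile range) added to the model 64.9% of the calls were higher, against 78.8% without it. The largest rise was that of Nabp1, which encodes a single-stranded DNA-binding protein of DNA repair. It read 5.67, 7.22 and 6.79 at 4 h and 8.66 and 8.65 at 8 h, a rise of 2.10 ± 0.26 (adjusted p = 0.000108), against 8.62, 8.51 and 8.35 in the controls, from which 8 h did not differ in the test (0.16; adjusted p = 0.834). Ppp1r10, which encodes a targeting subunit of protein phosphatase 1 in the nucleus, went from 6.05, 6.75 and 6.22 at 4 h to 7.63 and 7.79 at 8 h (by 1.37 ± 0.18; adjusted p = 0.000182), and was 0.99 below its level at 0 h (-0.91, not past the test, without 8 h array 1). Tcim (1.75), Pxylp1 (1.66), the TNF receptor adaptor gene Traf1 (1.59) and L3mbtl3 (1.53) also rose. The Pxylp1 probe set is of the cross-hybridizing type and had means of 5.81 in the controls and 6.77 at 8 h. Its difference from 0 h, 0.96, did not pass in limma over probe sets (adjusted p = 0.0895). The 4 h mean of Tcim, 4.87, was below the background level of 5.08, so its difference is not an exact size. The mean of the probe sets gave 1.03 for Traf1 and 0.82 for L3mbtl3. Of 15 NF-kB and inflammatory genes 6 were higher at 8 h than at 4 h, and the list median was 0.25, against 0.01 over all genes. The largest falls were in Taf15 (-1.41), an RNA-binding protein gene of the FET family, Taf1d (-1.28), Pcf11 (-1.23) and Rps15a (-1.07). Pcf11 acts in cleavage of the 3' end of transcripts, and Rps15a is a ribosomal protein gene. The Rps15a probe set read 5.69 in the controls and 5.48 at 8 h on average, near the background level. The 21 cytosolic ribosomal protein genes listed above had control means of 8.905 to 13.3, so its difference may not stand for the main Rps15a transcript. Taf15 did not pass without 8 h array 2 (-1.31), and the mean of the probe sets gave -0.76 for Taf15 and -0.64 for Taf1d.

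From 8 h to 12 h, 156 genes (1.21%) differed, 63 (0.487%) higher and 93 (0.718%) lower at 12 h, 4 of them by at least 2-fold (0.0309%). The split moved with the scaling, from 40.4% higher to 19.4% higher of 36 calls with median centring. Rbm14 read 11.14 and 11.001 at 8 h and 9.99, 9.73 and 9.58 at 12 h, and fell by 1.305 ± 0.13 (adjusted p = 7.58e-05) to below the controls. Fst fell by 1.18 ± 0.15 (adjusted p = 0.000782), from 6.95 and 6.94 to 5.48, 6.05 and 5.76. Hsd3b7, a bile acid synthesis enzyme gene, rose from 7.61 and 7.51 to 8.67, 8.38 and 8.43 (by 0.94 ± 0.11; adjusted p = 0.000518), having already risen by 0.87 ± 0.11 from 0 h to 8 h. Ifit1, an interferon-induced gene, rose by 0.83 ± 0.15 (adjusted p = 0.0128) from 4.55 and 4.92 at 8 h, where it was below the background level and did not differ from 0 h in the test (0.01); it did not pass without 8 h array 1 (0.65). In a fit of the 8 h and 12 h arrays alone 0 genes passed in limma, with 1148 at an unadjusted p under 0.05. Over the arrays left out in turn the count ran from 9 without 8 h array 1 and 25 without 8 h array 2 to 48, 98 and 141 without AICAR 12h replicates 1, 2 and 3.

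A gene that changes steadily lies at 8 h near the middle of its levels at 4 h and 12 h. Against the mean of those times, 32 genes (0.247%) differed at 8 h, 26 (0.201%) higher and 6 (0.0464%) lower, 2 of them by at least 2-fold (0.0155%). Tcim read 4.42, 5.03 and 5.17 at 4 h, 6.71 and 6.53 at 8 h and 5.75, 5.98 and 5.44 at 12 h, and was 1.32 ± 0.17 above the middle (adjusted p = 0.00476), with 2 of the 3 arrays at 4 h below the background level. L3mbtl3 was 1.02 ± 0.19 above it (adjusted p = 0.0317; 0.56 by the mean of its probe sets) and Zgpat 0.91 ± 0.13 (adjusted p = 0.0183). Mef2d, which encodes a MEF2 transcription factor, stood below: it read 9.38, 9.38 and 9.41 at 4 h, 8.79 and 8.80 at 8 h and 9.17, 9.09 and 9.04 at 12 h, 0.45 ± 0.07 under the middle (adjusted p = 0.0196). Its 8 h arrays lay below all arrays at 4 h and 12 h, a separation that the rule for naming genes required. Without 8 h array 1, 0 genes passed in limma (612 at an unadjusted p under 0.05), with Tcim at 1.23, L3mbtl3 at 1.05, Zgpat at 0.69 and Mef2d at -0.44, and without 8 h array 2, 3 genes did, with L3mbtl3 at 0.99 and Mef2d at -0.46 not among them. Without AICAR 12h replicate 2 the count was 12, and L3mbtl3 (1.04) did not pass. In a fit of the 3 times alone 0 passed (1042 at an unadjusted p under 0.05).

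**Figure D4:**
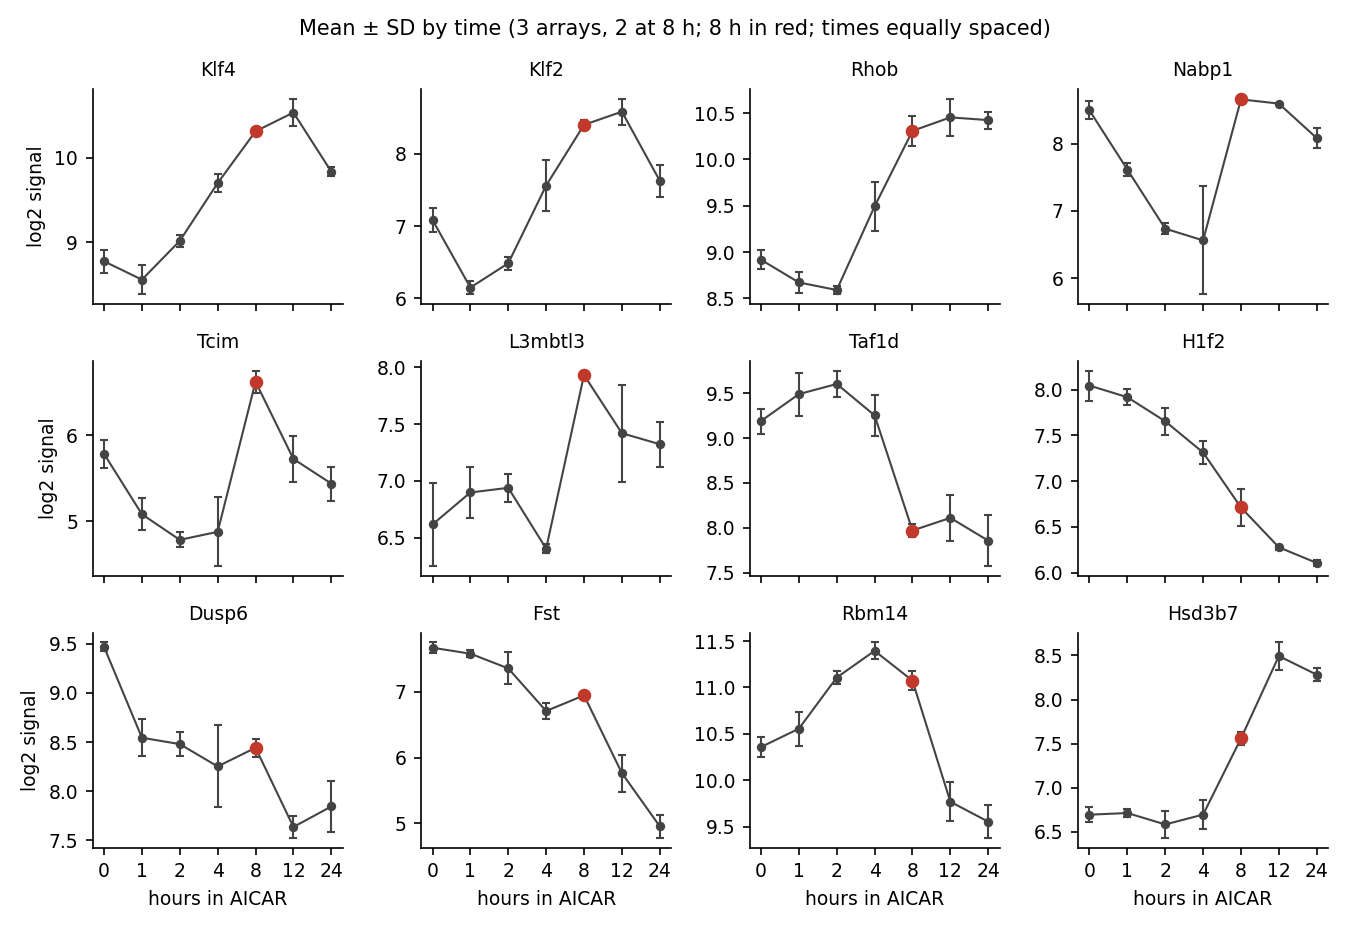
Mean log2 signal ± SD at each time for 12 genes, over 3 arrays a time and 2 at 8 h (red), with the times spaced equally and each panel on its own scale. Klf4, Klf2 and Rhob climb to 8 h and 12 h, Tcim and L3mbtl3 are highest at 8 h, Taf1d drops between 4 h and 8 h, and Rbm14 drops between 8 h and 12 h.

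Probe sets of the same gene did not always move together. Each single-symbol probe set was tested on its own, a fit added after the data were seen: 1754 of 20460 probe sets passed (8.57%), 1164 (5.69%) higher and 590 (2.88%) lower. Of 4876 genes with at least 2 probe sets tested, 178 had at least 2 past the threshold, and in 25 of these the probe sets passed in opposite directions. Those 25 genes had 89 probe sets tested, of which 27 were higher, 28 lower and 34 not past the threshold.

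Genes of inducible signals and of phosphatases were among them. One probe set of Ptgs2 went from 10.18, 10.26 and 10.44 in the controls to 9.66 and 9.32 at 8 h and fell by 0.80 ± 0.13, while the other went from 8.13, 8.02 and 8.10 to 9.11 and 8.79, a rise of 0.87 ± 0.14. Arrays of the 2 groups did not overlap in either. Fosl2, an AP-1 subunit gene, had a probe set that fell from 8.997, 8.98 and 8.93 to 8.08 and 8.31 (by 0.78 ± 0.17) and one that rose from 6.54, 6.72 and 6.82 to 7.34 and 7.67 (by 0.81 ± 0.14). Lats2 fell by 0.62 ± 0.16 in the probe set with the highest signal and rose by 1.52 ± 0.26 in another, from 6.34, 6.42 and 6.12 to 8.04 and 7.58. For Csf1 the probe sets fell by 0.66 ± 0.13 and 0.69 ± 0.13 and rose by 0.41 ± 0.09 and 0.67 ± 0.11. By the mean of a gene's probe sets Ptgs2 (0.03), Fosl2 (0.02) and Csf1 (-0.07) did not pass, nor Lats2 (0.34); without 8 h array 1 Fosl2 was -0.66 and Csf1 -0.62, also not past the test.

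Otud7b, a deubiquitinase gene, rose by 0.77 ± 0.12 in one probe set and fell by 0.93 ± 0.12 and 0.98 ± 0.16 in others. Ppp6c, the catalytic subunit gene of protein phosphatase 6, rose from 9.07, 8.88 and 8.88 to 9.51 and 9.45 in one (by 0.54 ± 0.09) and fell from 8.65, 8.70 and 8.62 to 8.26 and 8.12 in the other (by 0.46 ± 0.11). Ppm1a and Ppm1b, which encode PP2C phosphatases, and Ppp2r5c, a regulatory subunit gene of PP2A, showed the same kind of split, with the rising probe sets at 0.50 ± 0.09, 0.78 ± 0.19 and 0.61 ± 0.07 and the falling ones at -0.82 ± 0.13, -0.60 ± 0.10 and -0.62 ± 0.10. These genes were chosen because their probe sets disagreed, so no test is given for the disagreement. The files do not give the positions of the probes within the transcripts. The count of such genes was 62 with quantile normalization and 12 with median centring, 4 without 8 h array 1 and 11 without 8 h array 2, and 14, 14 and 16 without control arrays 1, 2 and 3.

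**Figure D5:**
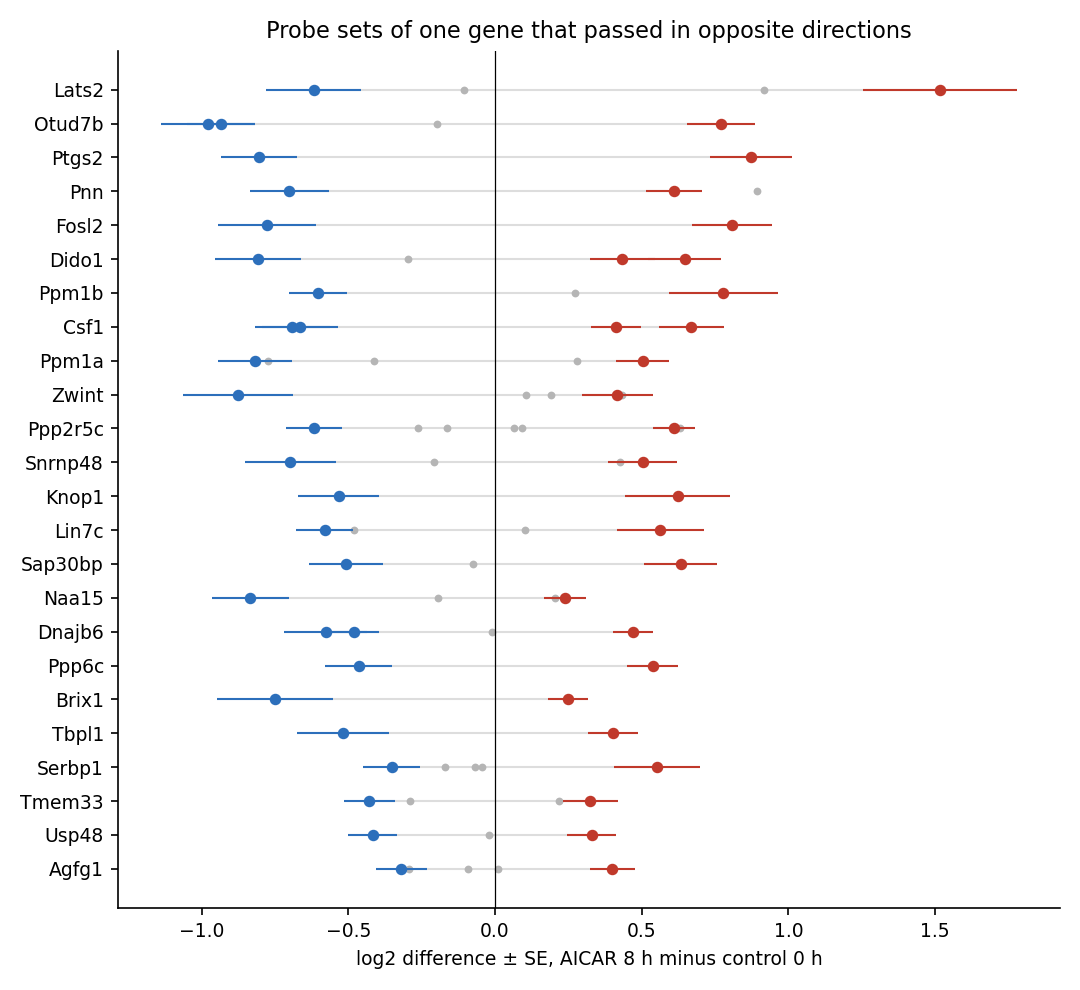
Log2 difference ± SE at 8 h against 0 h for each tested probe set of 24 named genes (1 Riken locus is left out) with probe sets past the threshold in opposite directions; red rose, blue fell, and grey points did not pass. Lats2 has the widest span, from -0.62 to 1.52.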

How the data were processed

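Expression was measured on Affymetrix MG-430 PM array strips, 20 arrays in all. The authors deposited log2 values per probe set, which were used as deposited. Log base 2 was read from the values: the highest, 13.5, is above what a natural log of 16-bit intensities can reach (11.1). For background correction, summarization and normalization, the tool was not given in the sources used here. Medians of the arrays differed by at most 0.159. Probe sets with 1 gene symbol were kept (28898 of 45141; 551 had several, 15692 were not listed and 104 were controls), with symbols updated through gene IDs. The probe set with the highest mean stood for each gene, and 12944 of 17097 genes had a highest group mean above the 40th percentile (4.81).

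limma 3.58.1 in R 4.3.3 fitted the 7 groups of all 20 arrays together (13 residual degrees of freedom), with Benjamini-Hochberg adjustment within each comparison and a threshold of 0.05. The procedure was checked on simulated data with noise drawn independently for each gene and array. The check therefore does not cover deviations that the genes of an array share. All differences are log2 values, ± SE of the fit, and the groups are taken from the titles. The comparison, the gene lists and the rule for naming genes (the largest differences with no overlap of arrays, and list members by size of t) were chosen with earlier results of these data known; genes with opposed probe sets were named after their values were seen. Promoter windows are RefSeq's (GRCm38.p6). Alternatives were another normalization, filter, probe set rule, variance model, set of arrays and a replicate block. Some gene lists are not reported here.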

Additional observations from a re-analysis of the deposited data

Results flagged for a closer look

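Tcim was 1.32 higher at 8 h than the mean of 4 h and 12 h (log2 scale), and L3mbtl3 was 1.02 higher. Both stood out because the change up to 8 h and the change after it differed in limma. For Tcim every 8 h array lay above every array at 4 h and 12 h, and so it did for L3mbtl3. The rule by which genes were named in this comparison required such a separation. At 4 h the Tcim arrays read 4.42, 5.03 and 5.17, and their mean, 4.87, is below the background level of 5.08. By the mean of its probe sets L3mbtl3 was 0.56 higher.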

How the results depend on the processing

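With 2 arrays at 8 h, the counts depended on single arrays and on scaling, and the cause was not tested. Leaving out 1 array in turn gave 250 to 1016 genes at 8 h against 0 h (170 to 829 higher, 80 to 309 lower), 520 to 1284 against 4 h, 9 to 141 from 8 h to 12 h, 0 to 99 against the middle of 4 h and 12 h, and 4 to 16 genes with opposed probe sets. Where an 8 h array is left out, the lone array is assumed to vary like the other groups. The lowest count of each came without AICAR 8h replicate 1. At 8 h against 0 h, quantile normalization gave 2081 genes (1410 higher, 671 lower), median centring 781 (594 and 187), array weights 2371 (1466 and 905) and the interquartile range as a covariate 2418 (1593 and 825). Using no filter or one at the 60th percentile, averaging a gene's probe sets, leaving out cross-hybridizing ones, a trended and robust variance and a fit of the compared groups alone gave 1090 to 1552 genes. Against 4 h, array weights gave 3251 genes and the compared groups alone 881; the share higher was 87.3% with median centring. From 8 h to 12 h the counts were 574 with quantile normalization, 36 with median centring, 243 with the filter at the 60th percentile, 408 with array weights, 758 with the covariate and 0 with the compared groups alone. Against the middle of 4 h and 12 h they were 189, 10, 79, 183, 295 and 0 in that order, 18 by the mean of all probe sets and 84 with a trended and robust variance. Probe sets in opposed directions were counted in 62 genes with quantile normalization and 12 with median centring. By the mean of all probe sets 3 named genes changed sign at 8 h against 0 h and did not pass: Fosl2 (0.0152), Lats2 (0.34) and Ptgs2 (0.0343).

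The labels do not say that a replicate number marks a shared culture or batch. Deviations of same-numbered arrays correlated at 0.0655 (replicate 1) and -0.295 (replicate 2) between 8 h and 0 h, where 2 arrays deviate as mirror images, and from -0.455 to 0.79 over all groups; all 3 correlations were over 0.1 in 6 of the 15 group pairs with 3 numbers, and both were in 2 of the 6 group pairs with 8 h. The replicate 3 arrays at 0, 1, 2, 12 and 24 h all correlated positively with each other, from 0.326 to 0.79. With AICAR 4h replicate 3 their correlations ran from -0.116 to 0.202. The controls hold a replicate 3 array and the 8 h group has none. Arrays of different numbers also shared deviations. The deviations of 8 h array 2 correlated at 0.66 with AICAR 12h replicate 3 and 0.643 with AICAR 2h replicate 3. Its correlation with AICAR 12h replicate 2 was -0.455, and that of 8 h array 1 with AICAR 12h replicate 1 was 0.528. The cause of these shared deviations was not tested. The numbers were not taken to pair the arrays, and the replicate block is given here alone: with it 1965 genes differed at 8 h against 0 h (1209 higher, 756 lower), 652 from 8 h to 12 h (64.9% higher) and 107 against the middle. Signals under the background level of 5.08, such as that of Ifit1 at 8 h, limit what can be read of those genes.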
